A study of Mus musculus with 41 samples.

Results

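The genes described here are those whose symbol begins with Hnrnp, Srsf, Sf3a, Sf3b, Snrp or Prpf: the heterogeneous nuclear ribonucleoproteins (hnRNPs) and the best-known protein factors of pre-mRNA splicing. Of 13283 mouse genes named by a probe on these Illumina arrays, 57 met that rule: 19 hnRNP genes, 10 SR protein genes (Srsf), 3 of SF3a, 6 of SF3b, 7 of the Snrp family and 12 Prpf genes. They were read by 114 probes, and 34 of them had more than 1 probe; the probe of highest mean level stands for each gene, and for a called gene any other probe with a difference of the opposite sign is given as well. Older symbols (Hnrp, Sfrs) were looked for as well.

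All cells came from the thymus of C57Bl/6 mice and were sorted from digested tissue as thymic epithelial cells (TEC, CD45- EpCAM+) or as the remaining stroma (nonTEC, CD45- EpCAM-), so that both gates leave out cells with the leukocyte marker CD45. Unoperated mice were middle-aged (9 to 12 months) or young (5 to 6 weeks). Surgically castrated and sham-castrated middle-aged mice were taken at day 4 and day 7 in both fractions, and at day 20 in TEC only. There were 41 arrays in 14 groups, with 3 arrays in a group except sham day 7 of nonTEC with 2. Whether the arrays of one group are different animals is not given in the sources used here, and the p-values below therefore measure the spread between arrays only, which may be technical.

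Splicing removes introns from new transcripts in the spliceosome, an assembly of small nuclear RNAs with proteins. The Sm proteins (Snrpb, Snrpd1, Snrpd2, Snrpd3, Snrpf and Snrpg among them) form a ring around most of these RNAs, SF3a and SF3b help the U2 particle hold the branch point, and many Prpf proteins sit in or act on the tri-snRNP that is built into the active complex. SR proteins and hnRNPs bind the transcript itself, and their balance at a splice site shifts which exons are kept; in the thymus, alternative splicing is best known for the exons of the CD45 transcript in developing T cells, in which Hnrnpll and Hnrnpl take part.

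The sequences just before the start of 7 members are shown because these genes carry the changes described below. Snrpd3 was lower in middle-aged samples of both fractions. Snrpd2, Snrpf and Snrpg stand for the Sm genes that were lower at sham day 20 in TEC, and Hnrnpdl, Srsf1 and Prpf8 were higher there. Each is the 120 bases upstream of the first annotated start in RefSeq (GRCm38.p6), written 5′ to 3′ on the gene's strand. Capitals mark CCAAT or its reverse complement ATTGG.
Snrpd3, chr10:75517922-75518041, plus strand: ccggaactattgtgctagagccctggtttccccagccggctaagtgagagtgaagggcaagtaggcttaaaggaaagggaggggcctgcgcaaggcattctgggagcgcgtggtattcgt
Snrpd2, chr7:19149718-19149837, plus strand: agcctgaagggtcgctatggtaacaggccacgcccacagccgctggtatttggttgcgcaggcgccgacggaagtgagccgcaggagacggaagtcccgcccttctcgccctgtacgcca
Snrpf, chr10:93589659-93589778, minus strand: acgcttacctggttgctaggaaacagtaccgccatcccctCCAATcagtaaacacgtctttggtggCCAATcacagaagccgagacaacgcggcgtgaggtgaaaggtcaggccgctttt
Snrpg, chr6:86371420-86371539, plus strand: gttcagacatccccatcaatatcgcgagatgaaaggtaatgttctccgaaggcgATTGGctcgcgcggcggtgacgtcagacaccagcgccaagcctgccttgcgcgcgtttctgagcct
Hnrnpdl, chr5:100039223-100039342, minus strand: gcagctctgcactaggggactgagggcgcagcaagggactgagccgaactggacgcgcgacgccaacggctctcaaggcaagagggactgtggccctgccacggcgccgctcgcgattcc
Srsf1, chr11:88047253-88047372, plus strand: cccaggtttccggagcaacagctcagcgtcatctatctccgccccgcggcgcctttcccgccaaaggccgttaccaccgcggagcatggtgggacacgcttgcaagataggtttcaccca
Prpf8, chr11:75486657-75486776, plus strand: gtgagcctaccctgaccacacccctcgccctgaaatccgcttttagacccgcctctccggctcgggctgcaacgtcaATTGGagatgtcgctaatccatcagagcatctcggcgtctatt

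A window was found for 50 of the 57 members, with 67 windows in all since some genes have several starts. CCAAT or ATTGG was in 25 of these 67 windows (37.3%), against 21.3% of all 32851 windows of this length. CCGGAAG or its reverse complement CTTCCGG was in 14 member windows (20.9%), against 4.99% of all windows, and CACGTG, its own reverse complement, in 7 (10.4%), against 3.66%. Windows of 1 gene overlap where its starts lie close together, and these shares are a description of letters, not of binding.

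The sorts were checked against the mean level of an epithelial list (Epcam, keratins, Foxn1 and others). It lay between 10.4 and 11.1 log2 units on TEC arrays (10 of 11 genes measured) and between 5.63 and 7.61 on nonTEC arrays (9 of 11), 2 sets that the authors normalized separately. In TEC, the 6 arrays of day 20 stood apart from the other 18, with first principal component scores of 41.1 to 54.9 against at most 1.62. A gene was tested where at least 1 group mean exceeded the median of all values, 6.73 log2 units: 45 members in TEC and 46 in nonTEC passed, 46 in any comparison, and the remaining 11 passed in none. Those 11 are Hnrnpa3, Hnrnpd, Hnrnph2, Hnrnpr, Hnrnpul1, Prpf31, Prpf39, Prpf4b, Sf3a2, Sf3b1 and Srsf12. Differences below are log2 intensities with their standard errors from limma, and a gene was called when its p-value, adjusted by Benjamini-Hochberg over all genes tested, was under 0.05. In sorted bulk samples, fewer cells of a type and less RNA per cell cannot be told apart.

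The members with the probe of highest mean in each family in TEC were Hnrnpc, Srsf2, Sf3a3, Sf3b2, Snrpd2 and Prpf19. Hnrnpc, which packages new transcripts, stayed between 12.73 and 13.37 log2 units over the 24 TEC arrays and between 12.82 and 13.30 over the 17 nonTEC arrays. Sf3a3, a subunit of SF3a, ranged from 10.46 to 10.90 in TEC and from 10.62 to 11.07 in nonTEC. Its ageing difference was 0.03 ± 0.09 in TEC (SE; 95% interval -0.16 to 0.22) and 0.02 ± 0.12 in nonTEC (-0.23 to 0.28). Sf3b2 ranged from 10.96 to 11.95 in TEC and from 11.19 to 11.82 in nonTEC. Snrpd2, the Sm protein D2, ranged from 11.51 to 12.55 in TEC and from 11.24 to 12.39 in nonTEC. The values of Srsf2 and Prpf19 are given with the castration comparisons.

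The widest spread between TEC arrays was in hnRNP probes that dropped together on 4 arrays. These genes and the 4 arrays were singled out after the values were seen. Hnrnpk, a KH-domain RNA-binding protein, read 8.48, 8.47 and 4.89 in middle-aged TEC, against 7.84, 8.77 and 8.16 in young TEC. At day 4 Hnrnpk read 8.07, 4.68 and 4.93 after castration, against 8.62, 8.69 and 8.46 after sham surgery, and at day 7 it read 8.08, 8.0 and 5.32 after castration, against 8.56, 8.80 and 8.92 after sham surgery. The low readings were those of middle-aged array 3, castrated day 4 arrays 2 and 3 and castrated day 7 array 3, and the other 20 TEC arrays did not overlap them.

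Hnrnpa2b1, a close relative of Hnrnpa1, was low on those same 4 arrays, at 5.58 to 6.14 log2 units, against 8.37 to 10.71 on the other 20 TEC arrays. For Hnrnph1, which binds runs of G in transcripts, 2 probes were low on all 4: one at 4.76 to 5.58 against 7.63 to 10.34, the other at 4.41 to 6.42 against 8.08 to 10.96. In all, 7 probes of 6 members (Hnrnpa1, Hnrnpa2b1, Hnrnph1, Hnrnpk, Snrpa and Srsf5) lay more than 2 log2 units below their TEC median on each of the 4 arrays. The drop differed between probes of a gene. The dimmer Srsf5 probe read 4.81, 5.67, 5.99 and 7.02 on these arrays and 9.18 to 11.04 elsewhere in TEC. The brighter Srsf5 probe read 8.68, 8.88, 8.91 and 9.91 on these arrays, against a mean of 9.79 over all TEC arrays. The reading of 8.68 was its lowest in TEC, so the brighter probe was low there too, but by less, except at 9.91. Hnrnpa0 had a second probe at 5.39 on middle-aged array 3, where its brighter probe read 10.40.

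Among 58 member probes with a TEC median above 8 log2 units, 10 lay more than 2 log2 units below that median on middle-aged array 3 (17.2%, against 4.66% of all 6006 such probes). The counts were 10 on castrated day 4 array 2 (17.2% against 3.41%), 9 on castrated day 4 array 3 (15.5% against 4.13%) and 7 on castrated day 7 array 3 (12.1% against 0.999%). These 4 arrays were picked as those with 5 or more low member probes, so a high member share on them was fixed by that choice. Some of the low probes belong to the same gene, as for Hnrnph1. Middle-aged array 2 was low in other probes: 2 of the 58 (3.45% against 5.08%), which were Hnrnpa1 at 4.99 and Hnrnpm at 7.65. Sham day 4 arrays 2 and 3 had 1 low member probe each, and none was low on the remaining 17 TEC arrays or among 62 probes on any of the 17 nonTEC arrays. The cause was not tested. Hnrnpk, Hnrnpa2b1, Hnrnph1 and Hnrnpa1 had standard errors of 0.39 to 0.96 in the TEC comparisons; the probe that stands for Hnrnpa1 was low not on those 4 arrays but on middle-aged array 2 (4.99) and sham day 4 array 2 (6.86). A difference as large as -2.70 ± 0.86 (Hnrnpk, castration at day 4, adjusted p = 0.074 by limma) was not called.

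**Figure D1:**
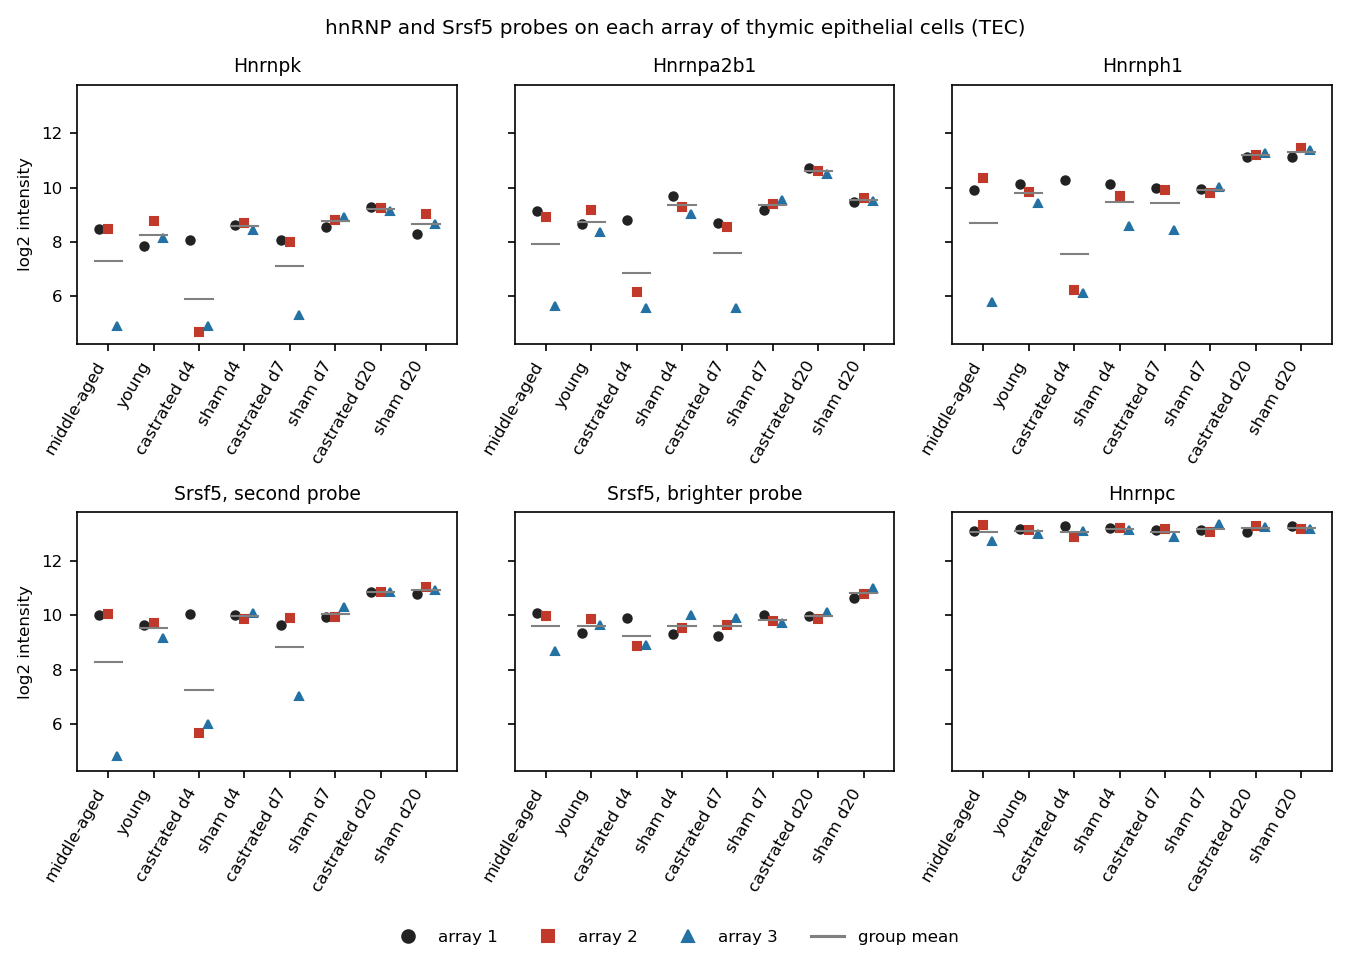
Log2 intensity (vertical axis) of 6 member probes on each TEC array, by group (horizontal axis); symbols are arrays 1 to 3 of a group and the grey line is the group mean. Hnrnpk, Hnrnpa2b1 and the second Srsf5 probe fall on middle-aged array 3, castrated day 4 arrays 2 and 3 and castrated day 7 array 3; the brightest Hnrnph1 probe falls to 5.80, 6.25 and 6.11 on the first 3 of these and reads 8.45 on the last, and Hnrnpc stays at 12.73 or above.

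Ageing was compared in unoperated mice, the middle-aged group against the young one. In TEC, 1 of 45 members was higher and 1 lower with age (4.44%), where 18.8% of the 8195 genes tested were called, 11.9% as higher and 6.88% as lower. Snrpd3, the Sm protein D3, read 10.84, 10.52 and 10.78 in middle-aged TEC, against 11.32, 11.25 and 11.10 in young TEC. The groups did not overlap, and the difference was -0.51 ± 0.12 (0.70-fold, limma adjusted p = 0.00848). Its call held under each left-out array, but not when only the 6 arrays compared were fitted (adjusted p = 0.176), where 8 of all genes were called, or with the cell cycle mean as a covariate (adjusted p = 0.11). The other 6 Snrp genes had differences between -0.28 and -0.04 and were not called.

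Hnrnpa0, a small hnRNP of the A/B type, read 10.33, 10.37 and 10.40 in middle-aged TEC, against 9.81, 9.78 and 9.68 in young TEC. The difference was 0.61 ± 0.19 (1.53-fold, limma adjusted p = 0.0321). Its second probe went the other way, with a difference of -1.15, and was one of those that were low on middle-aged array 3. The mean of both probes gave -0.27 ± 0.33 (adjusted p = 0.601), and the call on the brighter probe was also lost without middle-aged array 1 or 2 or any 1 of the 3 young arrays (adjusted p 0.051 to 0.0914). Over all members the median difference was -0.04, against 0.01 for all genes, and the 13 hnRNP genes had the widest range, from -1.68 to 0.61.

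Leaving out middle-aged array 3 raised the TEC count to 4 members called (1 higher, 3 lower), and leaving out middle-aged array 1 raised it to 3. Leaving out any 1 of the 3 young arrays lowered it to 1. Without the 4 low arrays and sham day 4 array 3, it was 7. Of the leukocyte markers (Ptprc, Coro1a and others), 3 of 5 tested were also lower in middle-aged TEC, with a list mean of 9.57 to 9.80 against 10.6 to 10.8 in young TEC, and 8 of 15 immediate early genes were higher, at 11.2 to 11.6 against 10.5 to 10.9. Of 3 erythroid genes 2 were lower (list mean 7.90 to 8.52 in middle-aged TEC against 9.10 to 9.51 in young TEC). Of 7 pericyte and smooth muscle genes 4 were lower and 1 higher (8.25 to 8.92 against 8.93 to 9.18), of 5 thymocyte genes 1 was higher and of 14 cell cycle genes 1 was lower, while no fibroblast, endothelial or epithelial gene was called. With the cell cycle mean as a covariate Hnrnpa0 was not called either (0.54, adjusted p = 0.224); the part of the other lists in the member changes was not tested.

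In nonTEC, 1 of 46 members was higher and 8 were lower with age (19.6%), where 32.4% of the 7771 genes tested were called, 16.8% as higher and 15.5% as lower. The 8 lower members were 3 Sm genes (Snrpb, Snrpd1, Snrpd3), 2 SF3b genes (Sf3b3, Sf3b4) and 3 hnRNPs (Hnrnpa1, Hnrnpl, Hnrnpab). No SR, SF3a or Prpf gene was called. The median difference of members was -0.14, against 0.02 for all genes, and all 7 Snrp genes had a negative difference (-0.60 to -0.09). The Snrp mean was 10.36, 10.89 and 11.06 on middle-aged arrays 1 to 3, against 11.34, 11.14 and 11.06 on the young arrays. Middle-aged array 1 was the lowest, and middle-aged array 3 overlapped the young arrays.

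Snrpb, which encodes the Sm proteins B and B′, read 10.77, 11.34 and 11.46 in middle-aged nonTEC, against 11.75, 11.77 and 11.86 in young nonTEC. The difference was -0.60 ± 0.16 (0.66-fold, limma adjusted p = 0.0074). A second Snrpb probe gave -0.46 and its dimmest probe 0.63, so that the mean of its probes was not called (adjusted p = 0.537). Snrpd3 read 10.51, 11.30 and 11.14 in middle-aged nonTEC, against 11.59, 11.70 and 11.46 in young nonTEC, a difference of -0.60 ± 0.16 (adjusted p = 0.00771). Snrpd1, the Sm protein D1, read 10.08, 10.83 and 10.84 in middle-aged nonTEC, against 11.23, 11.19 and 11.04 in young nonTEC (-0.57 ± 0.18, adjusted p = 0.0234), and its second probe gave -0.50. Middle-aged array 1 was the lowest for all 3 Sm genes. Without it Snrpd1 was no longer called (-0.32, adjusted p = 0.127), while Snrpb and Snrpd3 were.

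Hnrnpa1, a regulator that often opposes SR proteins at splice sites, read 9.83, 10.18 and 9.94 in middle-aged nonTEC, against 10.33, 10.47 and 10.74 in young nonTEC. The difference was -0.53 ± 0.15 (limma adjusted p = 0.0122), but its 2 dimmer probes gave 0.32 and 0.42, and the mean of the 3 gave 0.070 ± 0.17. Without young array 3 it was not called (-0.42, adjusted p = 0.0751). Hnrnpk was the member that was higher: 10.08, 9.58 and 9.92 in middle-aged nonTEC, against 7.95, 9.62 and 9.15 in young nonTEC (0.96 ± 0.29, 1.94-fold, adjusted p = 0.0172). Its groups overlapped, and without young array 1 the difference was 0.48 (adjusted p = 0.0954); the 2 dimmer Hnrnpk probes gave 0.71 and 0.53. Sf3b4 (-0.51), Sf3b3 (-0.40), Hnrnpl (-0.38) and Hnrnpab (-0.29) had adjusted p-values of 0.0253 to 0.0478 in limma.

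These 4 calls were lost under many alternatives: Hnrnpab under 12 of 16, Sf3b4 under 10, Hnrnpl under 9 and Sf3b3 under 7. Sf3b4, an SF3b subunit, gave -0.30 without middle-aged array 1 (adjusted p = 0.226). The 2 dimmer Sf3b4 probes gave 0.20 and -0.23, and the mean of the 3 gave -0.18 (adjusted p = 0.471). Sf3b3 was not called without middle-aged array 3 (-0.28, adjusted p = 0.109) or young array 1 or 2 (adjusted p 0.0909 and 0.056). Hnrnpl was not called without middle-aged array 1 or 3 or young array 1 or 3 (adjusted p 0.0528 to 0.153). Hnrnpab was called without middle-aged array 3 but not without any 1 of the other 5 arrays (adjusted p 0.0688 to 0.128), and with the replicate number as a block its adjusted p was 0.0588.

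The sham-operated middle-aged arrays of days 4 and 7 give a second comparison with the same young nonTEC arrays. With them in place of the unoperated middle-aged arrays, 6 members were called (1 higher, 5 lower), and of the 9 only Hnrnpa1 (-0.45, limma adjusted p = 0.0169) and Hnrnpab (-0.28, adjusted p = 0.0376) were among them. None of the 3 Sm genes was: Snrpd3 gave -0.29 (adjusted p = 0.128), Snrpb -0.31 (adjusted p = 0.107) and Snrpd1 -0.40 (adjusted p = 0.0725). Sf3b3 gave -0.29, Hnrnpk 0.34, Sf3b4 -0.071 and Hnrnpl -0.049 (adjusted p 0.0648 to 0.792). All 9 kept their sign, and 7 were called only with the unoperated middle-aged arrays.

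**Figure D2:**
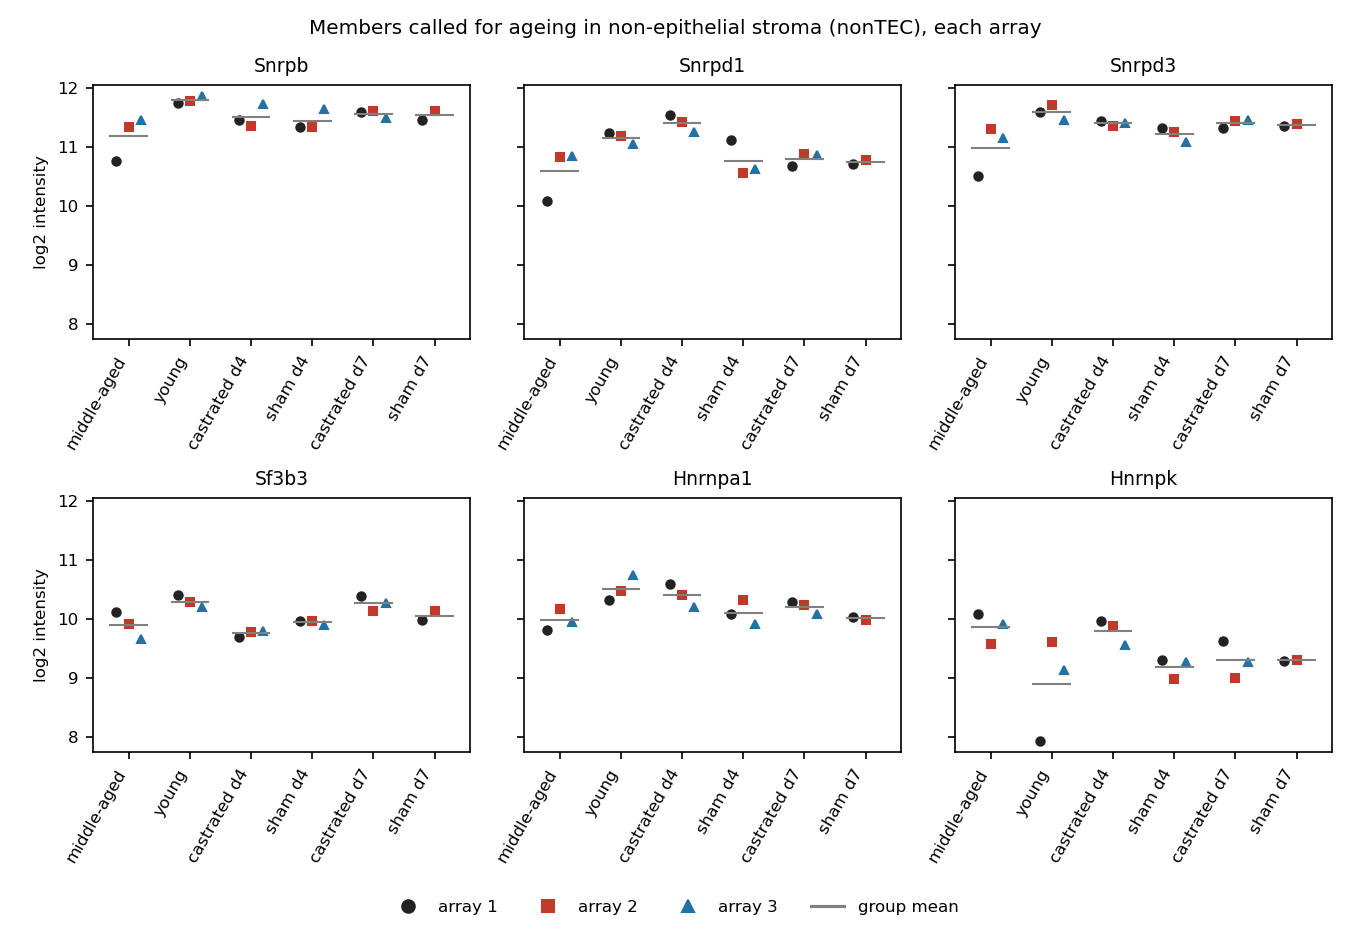
Log2 intensity (vertical axis) of 6 of the members called for ageing on each nonTEC array, by group (horizontal axis); symbols are arrays 1 to 3 and the grey line is the group mean. Snrpb, Snrpd1 and Snrpd3 are lower on all 3 middle-aged arrays than on any young array, and the spread of Hnrnpk rests on young array 1 at 7.95.

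Many cell markers moved with age in nonTEC too. Of 15 cell cycle genes tested, 14 were lower, with a list mean of 6.41 to 6.83 in middle-aged nonTEC against 8.07 to 8.11 in young nonTEC. All 10 thymocyte genes tested of 13 measured were lower (6.65 to 7.47 against 8.03 to 9.01), as were all 5 leukocyte genes tested of 8 measured (6.41 to 7.10 against 8.39 to 8.57) and 4 of 5 epithelial genes (5.65 to 6.47 against 6.87 to 7.61). Of 10 fibroblast genes 5 were lower (11.9 to 12.4 against 12.5 to 12.7), and 4 of 15 immediate early genes were higher.

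With the mean of the thymocyte list as a covariate, 1 member (Hnrnpk, 1.31 ± 0.39) remained called, and 864 of all genes. With the cell cycle mean as a covariate no member was called, and 589 genes were; at an unadjusted p under 0.05 the fit without covariate had 16 members. Standard errors were larger with the cell cycle mean, 0.27 against 0.16 for Snrpb, and the differences did not all shrink. Snrpb gave -0.66 (adjusted p = 0.129), Sf3b3 -0.54 (adjusted p = 0.128) and Hnrnpk 1.19 (adjusted p = 0.137), each at least as large as without it. Snrpd3 and Sf3b4 gave -0.41 each, and Snrpd1 -0.20, Hnrnpa1 -0.14, Hnrnpl -0.069 and Hnrnpab -0.016 were smaller (adjusted p 0.337 to 0.966 for these 6). With the thymocyte mean the same 3 genes stayed near or above their size (Snrpb -0.58, Sf3b3 -0.55), while Snrpd3 gave -0.48, Sf3b4 -0.43, Snrpd1 -0.32, Hnrnpa1 -0.20, Hnrnpl -0.15 and Hnrnpab -0.13. When only the 6 arrays compared were fitted no member was called (adjusted p 0.057 to 0.138 for the 9), while 1316 of all genes were. The member count ranged from 5 to 14 when single arrays were left out: 14 without middle-aged array 3, 5 without young array 1 or 3, and 6 without middle-aged array 1.

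The ageing differences of TEC and nonTEC were compared directly by an interaction term. No member of 46 was called, where 11.2% of 8487 genes were (7.78% as higher in TEC and 3.45% as lower), and 8 members had an unadjusted p under 0.05 in limma; 3 members were called with array weights, 5 without TEC middle-aged array 1, 2 without TEC middle-aged array 2, and 1 without TEC middle-aged array 3, TEC young array 1, nonTEC middle-aged array 1 or 3, or nonTEC young array 2. For Snrpd3 the difference between fractions was 0.09 ± 0.20 (95% interval -0.31 to 0.49). Prpf19 (0.59 ± 0.20, adjusted p = 0.0539) and Srsf6 (0.72 ± 0.25, adjusted p = 0.0577) were nearest to a call, and Hnrnpk had -1.93 ± 1.0 (adjusted p = 0.214).

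**Figure D3:**
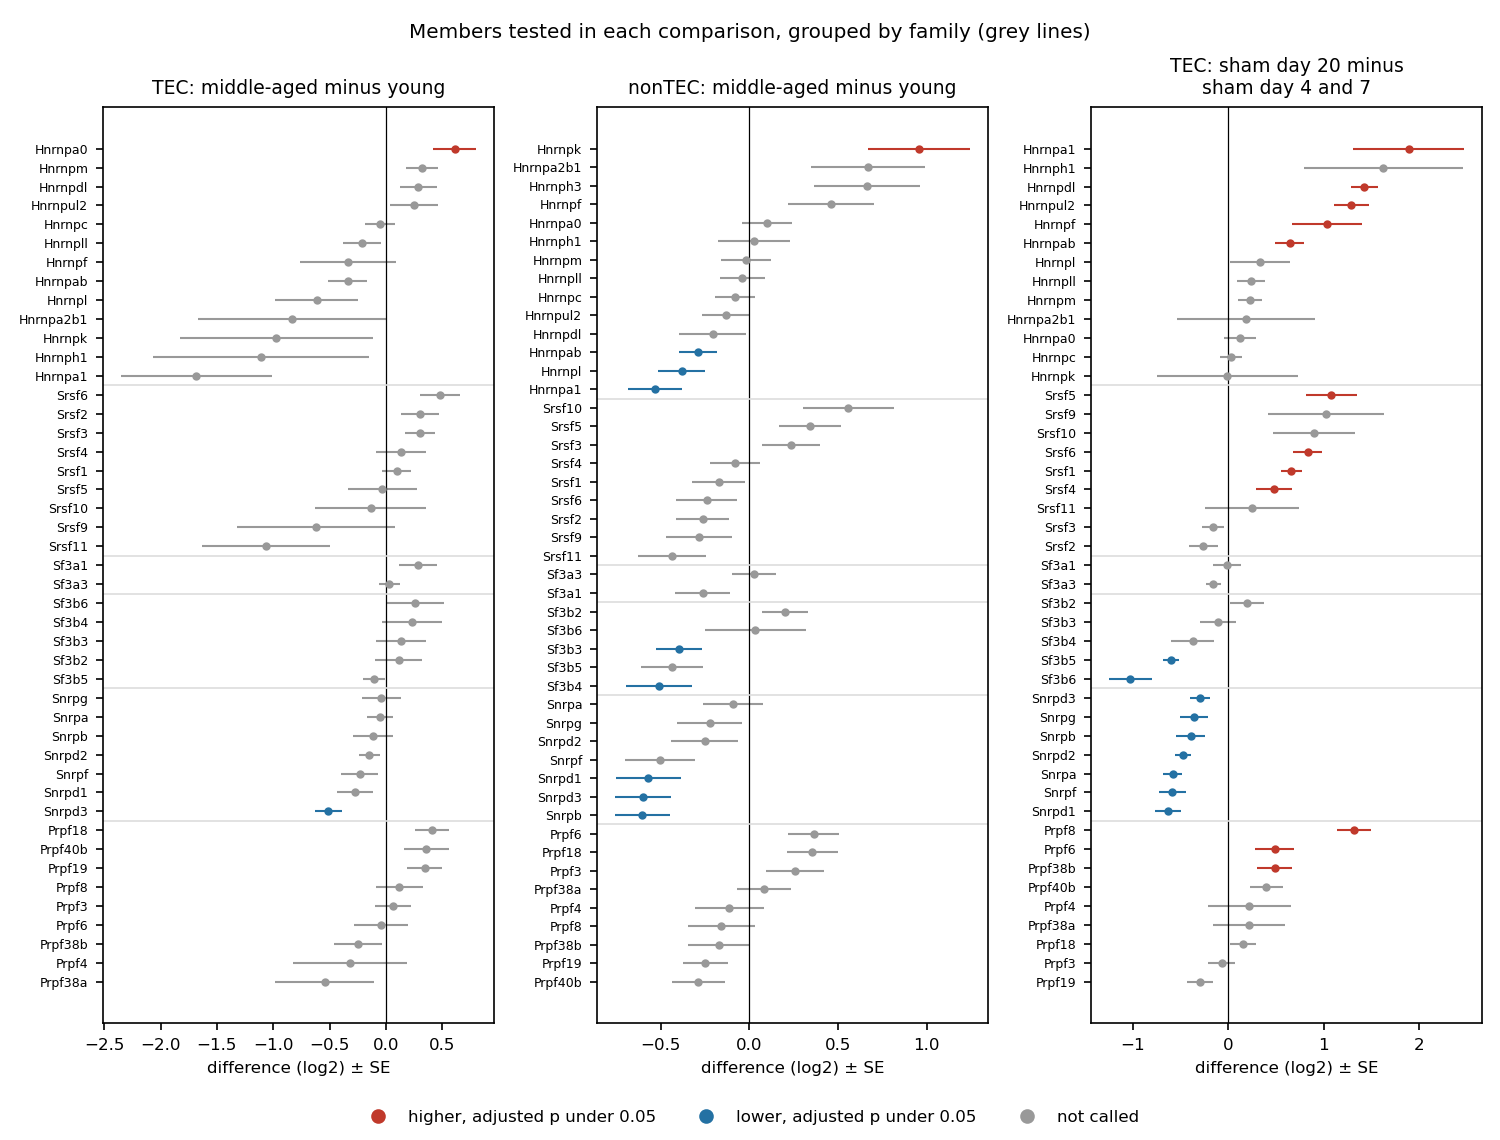
Difference in log2 intensity ± SE (horizontal axis) of each tested member in 3 comparisons, ordered by family between the grey lines; red and blue mark genes called higher and lower. Ageing called 2 members in TEC and 9 in nonTEC, while at sham day 20 all 7 Snrp genes were lower and 5 hnRNP and 4 SR genes higher than at sham day 4 and 7. Of the 5 hnRNP genes, Hnrnpf passed the filter on dim probes only through the day 20 groups, which fixed its direction.

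Castration was compared with sham surgery at each day. At day 4 in TEC, 1 member was higher and none lower, where 3.62% of genes were called (2.33% as higher and 1.29% as lower). That was Hnrnpdl, a relative of Hnrnpd (AUF1), at 10.76, 10.70 and 10.94 after castration, against 10.29, 10.07 and 9.71 after sham surgery. The difference was 0.78 ± 0.16 (1.72-fold, limma adjusted p = 0.0229). Its other probes gave -1.16 and 1.92, and their mean was not called (adjusted p = 0.158). The call was lost without sham array 3 or castrated array 2 or 3 (adjusted p 0.0844 to 0.0965), and in a fit of its 6 arrays alone (adjusted p = 0.225). Against unoperated middle-aged TEC in place of sham, Hnrnpdl differed by 0.16 (adjusted p = 0.711). Without middle-aged array 3, castrated day 4 arrays 2 and 3 and sham day 4 array 3 it differed by 0.58 (adjusted p = 0.388). Leaving out castrated day 4 array 1, the one array of its group without low hnRNP probes, raised the count to 15 members (7 higher, 8 lower), and leaving out sham day 4 array 1 raised it to 3. The 3.62% of genes belongs to the fit with all arrays. The share of all genes in these left-out fits is not given here, so the rise cannot be read as particular to members.

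At day 7 in TEC no member was called, where 0.171% of genes were (0.0732% as higher and 0.0976% as lower), and 6 members had an unadjusted p under 0.05 in limma. The nearest to a call were Srsf1 (0.47 ± 0.13, limma adjusted p = 0.13) and Sf3a1 (0.62 ± 0.17, limma adjusted p = 0.135). Array weights called 18 members at day 7, but the 0.171% belongs to the fit without weights. The share of all genes called with weights is not given here, so the 18 cannot be read as particular to members.

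At day 20 in TEC, 1 member was higher and 3 lower after castration (8.89%), where 22.5% of genes were called, 13.1% as higher and 9.40% as lower. Prpf8, the large protein at the heart of the U5 particle, read 9.06, 9.47 and 9.29 after castration, against 9.97, 9.72 and 9.96 after sham surgery (-0.61 ± 0.21, limma adjusted p = 0.0393). Srsf6, an SR protein, read 9.36, 9.56 and 9.18 after castration, against 9.96, 9.89 and 10.13 after sham surgery (-0.63 ± 0.18, adjusted p = 0.0144), with a dimmer probe at 0.22. For neither gene did the groups overlap. Against unoperated middle-aged TEC in place of sham, however, Prpf8 differed by 0.45 and Srsf6 by 0.092, so the sign of both turned with the control.

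Prpf19, the ubiquitin ligase of the Prp19 complex, read 11.35, 11.37 and 11.44 after castration, against 11.75, 11.98 and 11.77 after sham surgery. The difference was -0.44 ± 0.16 (limma adjusted p = 0.0461), and its other probes gave -0.46 and -0.66. Prpf38b was higher, at 9.21, 9.16 and 9.29 after castration, against 8.66, 8.43 and 8.66 after sham surgery (0.64 ± 0.21, adjusted p = 0.0339). Of the 4 calls, Prpf19 and Prpf38b were lost without any 1 of the 6 arrays (adjusted p 0.0586 to 0.179), Srsf6 without array 3 of either group (0.0717 without castrated array 3, 0.0668 without sham array 3) and Prpf8 without any but castrated array 2; the count was 0 without castrated or sham array 3 and 1 without castrated array 1 or sham array 1 or 2. When the 6 day 20 arrays alone were fitted, 15 members were called, and these 4 were among them, where 4216 of the 8195 genes were called.

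Other lists moved at day 20. After castration 6 of 14 cell cycle genes were higher, with a list mean of 7.83 to 7.92 against 7.12 to 7.34 after sham surgery, as were 4 of 5 leukocyte genes (10.5 to 10.7 against 9.32 to 9.63) and all 3 erythroid genes (8.28 to 8.45 against 7.02 to 7.55; median difference 1.11), and 10 of 15 immediate early genes were lower (10.2 to 10.4 against 11.4 in sham samples). With the cell cycle mean as a covariate no member was called, and 444 of 8195 genes were; 10 members had an unadjusted p under 0.05 without it. Prpf8 then gave -0.78 ± 0.33 (limma adjusted p = 0.173) and Srsf6 -0.56 ± 0.28 (adjusted p = 0.263), differences near or above those without the covariate but with larger standard errors. Prpf19 gave -0.24 ± 0.24 (adjusted p = 0.619) and Prpf38b 0.29 ± 0.32 (adjusted p = 0.651). The part of the other lists was not tested.

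Over days 4, 7 and 20 together, 3 members were higher after castration in TEC and none lower, where 10.8% of genes were called (5.87% as higher and 4.95% as lower). Sf3a1, the largest SF3a subunit, read 10.03, 10.63 and 10.49 at day 4, 10.37, 10.14 and 10.27 at day 7 and 9.72, 9.99 and 9.87 at day 20 after castration. The sham values of Sf3a1 were 9.96, 10.14 and 9.85 at day 4, 9.69, 9.51 and 9.72 at day 7 and 9.83, 9.73 and 9.84 at day 20. The mean difference was 0.36 ± 0.10 (limma adjusted p = 0.026); only at day 7 did the arrays not overlap. The dimmer Sf3a1 probe gave -0.060, and the mean of both was not called (0.15, adjusted p = 0.306).

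Hnrnpdl differed by 0.33 ± 0.09 over days (adjusted p = 0.032), with 0.78 at day 4, 0.42 at day 7 and -0.22 at day 20. Its other probes gave -0.54 and 0.85 over days, and the mean of the 3 was not called (0.21, adjusted p = 0.285). Srsf2, one of the first SR proteins described, differed by 0.33 ± 0.10 (limma adjusted p = 0.0411), its other probes gave 0.018 and -0.15, and the mean of the 3 was not called (0.063, adjusted p = 0.587). It read 11.75, 12.47 and 12.24 at day 4, 11.86, 11.97 and 12.23 at day 7 and 11.64, 11.74 and 11.54 at day 20 after castration, and 11.62, 11.94 and 11.64, then 11.60, 11.67 and 11.72, then 11.47, 11.36 and 11.47 after sham surgery. Its highest castrated readings were on day 4 arrays 2 and 3 and day 7 array 3, the arrays on which the hnRNP probes were low. Without the 4 low arrays and sham day 4 array 3 the difference of Srsf2 was 0.14, that of Sf3a1 0.22 and that of Hnrnpdl 0.22, with adjusted p-values of 0.145 to 0.207 and 1 other member was called. Single left-out arrays gave 0 to 9 members: 9 without castrated day 4 array 1, 0 without castrated or sham day 20 array 2, and 1 without castrated day 4 array 2 or 3, sham day 4 array 3, castrated or sham day 7 array 2 or 3, castrated day 20 array 1 or sham day 20 array 3.

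**Figure D4:**
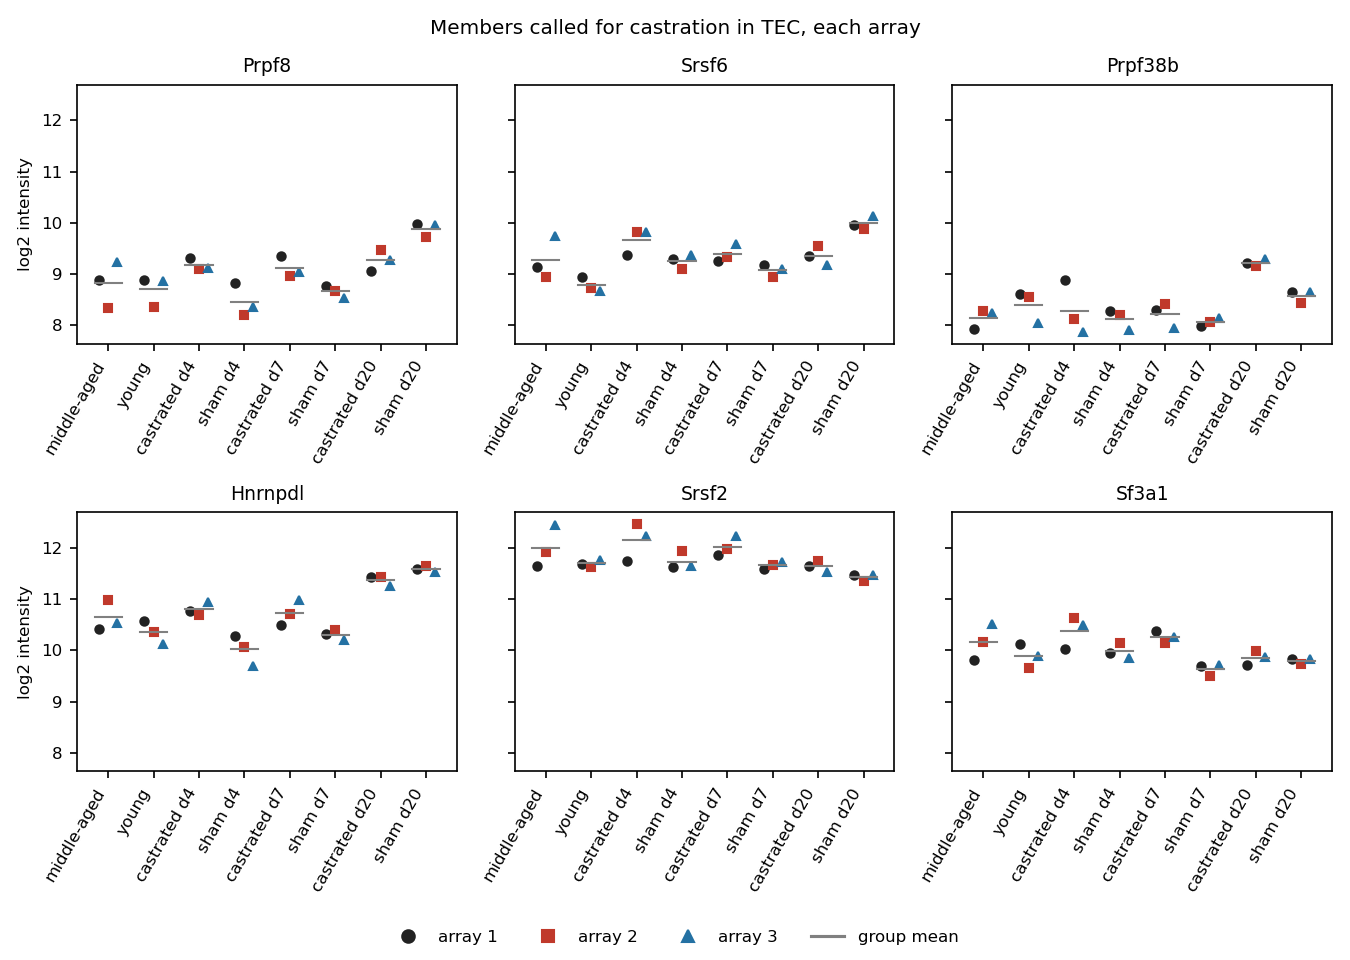
Log2 intensity (vertical axis) of 6 of the 7 members called for castration in TEC on each array, by group (horizontal axis); symbols are arrays 1 to 3 and the grey line is the group mean. At day 20, Prpf8 and Srsf6 are lower and Prpf38b is higher in castrated than in sham samples, and Hnrnpdl reads 11.26 to 11.65 in both.

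In nonTEC at day 4, 1 member was higher and 1 lower after castration, where 6.31% of genes were called (2.65% as higher and 3.65% as lower). Snrpd1 read 11.54, 11.41 and 11.25 after castration, against 11.11, 10.55 and 10.63 after sham surgery. The difference was 0.64 ± 0.18 (1.56-fold, limma adjusted p = 0.0425) and the groups did not overlap; all 7 Snrp genes had a positive difference here (0.08 to 0.64). Prpf40b, related to a U1-associated yeast protein, read 7.97, 7.93 and 8.0 after castration, against 8.54, 8.46 and 8.59 after sham surgery (-0.56 ± 0.15, adjusted p = 0.0338). Neither was called without castrated array 1 or 2 or sham array 2 or 3, where the count was 0, and without sham array 1 it was 1. With the replicate numbers as a block, Snrpd1 was not called (adjusted p = 0.063).

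Of the cell cycle genes, 14 of 15 were also higher after castration at day 4 in nonTEC (list mean 6.93 to 8.66 against 6.34 to 6.42 after sham surgery), as were 9 of 10 thymocyte genes (7.35 to 9.17 against 6.65 to 6.90), 4 of 5 leukocyte genes (6.78 to 8.11 against 6.18 to 6.50) and 4 of 5 epithelial genes (6.35 to 6.99 against 5.63 to 5.73). Their part in the Snrpd1 difference was not tested. At day 7 no member was called, where 0.438% of genes were (0.0515% as higher and 0.386% as lower), and over both days none was, where 6.54% were (2.73% as higher and 3.81% as lower); 2 and 4 members had an unadjusted p under 0.05 in limma, and array weights called 1 and 4.

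Sham surgery itself was compared with no surgery in middle-aged mice, over days 4 and 7. No member was called in TEC, where 3.01% of genes were (0.952% as higher and 2.06% as lower), or in nonTEC, where 0.283% were (0.244% as higher and 0.0386% as lower). By unadjusted p under 0.05 in limma there were 6 members in TEC and 11 in nonTEC, and array weights called 1 in each. In nonTEC, all 7 Snrp genes had a positive difference (0.03 to 0.78), the widest for Snrpf at 0.78 ± 0.18 (adjusted p = 0.0612) and Snrpg at 0.64 ± 0.17 (adjusted p = 0.0818). These samples share the unoperated middle-aged arrays with the ageing comparison, and the low Snrp mean on nonTEC middle-aged array 1 enters both. Without nonTEC middle-aged array 3 the count was 3, all higher. In TEC it was 3 without middle-aged array 3 and 2 without middle-aged array 1.

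The most member calls came between sham day 20 and the earlier sham days in TEC. Time after surgery cannot be told apart there from anything else that sets the day 20 arrays apart. Against sham day 4 and 7, sham day 20 TEC had 12 members higher and 9 lower of 45 (46.7%), where 57.8% of genes were called, 23.7% as higher and 34.1% as lower. The direction ran by family. All 7 Snrp genes were lower, and so were Sf3b5 and Sf3b6. With the cell cycle mean as a covariate, 4 of the 7 Snrp calls were lost (Snrpb -0.40, Snrpd1 -0.30, Snrpd3 -0.21 and Snrpg -0.52; limma adjusted p 0.0896 to 0.339), while Snrpa, Snrpd2, Snrpf, Sf3b5 and Sf3b6 were still called. The 12 that were higher were 5 hnRNPs (Hnrnpa1, Hnrnpdl, Hnrnpul2, Hnrnpf, Hnrnpab), 4 SR genes (Srsf1, Srsf4, Srsf5, Srsf6) and 3 Prpf genes (Prpf6, Prpf8, Prpf38b). Of these, Hnrnpab (0.61), Hnrnpf (1.26), Prpf6 (0.39) and Srsf4 (0.41) were not called with that covariate (adjusted p 0.0544 to 0.364). The median difference was 0.66 over 9 SR genes, 0.33 over 13 hnRNPs and -0.48 over the Snrp genes, against -0.12 over all genes. Hnrnpf, 1 of the 5 hnRNPs called higher, passed the filter on dim probes only through the day 20 groups. Its direction was fixed by that, so it adds nothing to the hnRNP direction or median.

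Hnrnpdl read 11.59, 11.65 and 11.53 at sham day 20, against 10.29, 10.07 and 9.71 at sham day 4 and 10.33, 10.40 and 10.21 at sham day 7. The difference was 1.42 ± 0.14 (2.68-fold), the groups did not overlap, and the other Hnrnpdl probes gave 1.15 and 3.14. Prpf8 read 9.97, 9.72 and 9.96 at sham day 20, against 8.83, 8.21 and 8.35 at sham day 4 and 8.78, 8.68 and 8.54 at sham day 7 (1.32 ± 0.18). Hnrnpa1 had the largest difference, 1.89 ± 0.58 (limma adjusted p = 0.00924), at 10.58, 10.45 and 10.02 on sham day 20, against 9.33, 6.86 and 8.15 at day 4 and 9.39, 8.36 and 8.70 at day 7; its other probes gave 0.94 and -0.39. Hnrnpf passed the filter on dim probes only through the day 20 groups, so it had to read higher there (1.03 ± 0.37).

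Among the genes that were lower, Snrpd1 read 10.41, 10.35 and 10.27 at sham day 20, against 10.93, 10.76 and 11.23 at sham day 4 and 10.94, 10.92 and 11.10 at sham day 7. The difference was -0.64 ± 0.14 (limma adjusted p = 0.000613), and its second probe gave -0.83. Sf3b5, a small SF3b subunit, read 11.03, 10.94 and 10.97 at sham day 20, against 11.49, 11.54 and 11.65 at day 4 and 11.67, 11.69 and 11.46 at day 7 (-0.60 ± 0.08). Sf3b6, which touches the branch point adenosine, read 6.88, 6.95 and 7.09 at sham day 20, against 7.85, 7.86 and 8.26 at day 4 and 8.33, 8.02 and 7.70 at day 7 (-1.03 ± 0.23), though both of its dimmer probes gave positive differences, 0.81 and 1.10. The remaining Snrp genes, Snrpa, Snrpb, Snrpd2, Snrpd3, Snrpf and Snrpg, differed by -0.59 to -0.30; the arrays of Snrpd3 overlapped.

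The castrated day 20 arrays shared the Snrp and hnRNP parts of this pattern. They shared the SR and Prpf parts against the earlier sham arrays, but not against the earlier castrated arrays. The mean level of the 7 Snrp probes was 10.5 to 10.6 on castrated day 20 arrays and 10.6 to 10.7 on sham day 20 arrays, and 10.9 to 11.2 on the other 18 TEC arrays. Hnrnpdl read 11.43, 11.44 and 11.26 after castration at day 20. The hnRNP mean, which includes Hnrnpf, was 10.53 to 10.62 there, against at most 9.90 at castrated day 4 and 9.86 at castrated day 7. The SR mean of 9.58 to 9.70 overlapped castrated day 7 (9.33 to 9.64). The Prpf mean of 9.09 to 9.16 lay within castrated day 4 (9.07 to 9.24). On sham day 4 and 7 arrays the SR mean was at most 9.54 and the Prpf mean at most 9.06. Arrays of day 20 carry no other group, and day 20 was not sampled in nonTEC, so the day after surgery and anything else that sets these 6 arrays apart cannot be told apart. Of 13 called members with several probes, 10 had all probes in 1 direction; Hnrnpa1, Hnrnpab (second probe -0.32) and Sf3b6 did not. Leaving out single arrays gave 15 to 21 members, and array weights 33. Cell cycle genes were also lower at sham day 20 (8 of 14; list mean 7.12 to 7.34 against 7.38 to 8.38 at days 4 and 7); with their mean as a covariate, 14 members were called, 13 of them among the 21. Leukocyte genes were lower too (3 of 5; 9.32 to 9.63 at sham day 20 against 10.045 to 10.7 at days 4 and 7), and so were all 3 erythroid genes (7.02 to 7.55 against 8.23 to 8.65; median difference -1.19). Several other lists were lower in part: 3 of 5 thymocyte genes (1 higher), 3 of 6 fibroblast genes (1 higher), 3 of 6 endothelial genes and 4 of 7 pericyte and smooth muscle genes (1 higher). Of 15 immediate early genes 7 were higher and 4 lower, and of 9 epithelial genes 1 was higher and 2 lower. The part of these lists in the member changes was not tested.

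**Figure D5:**
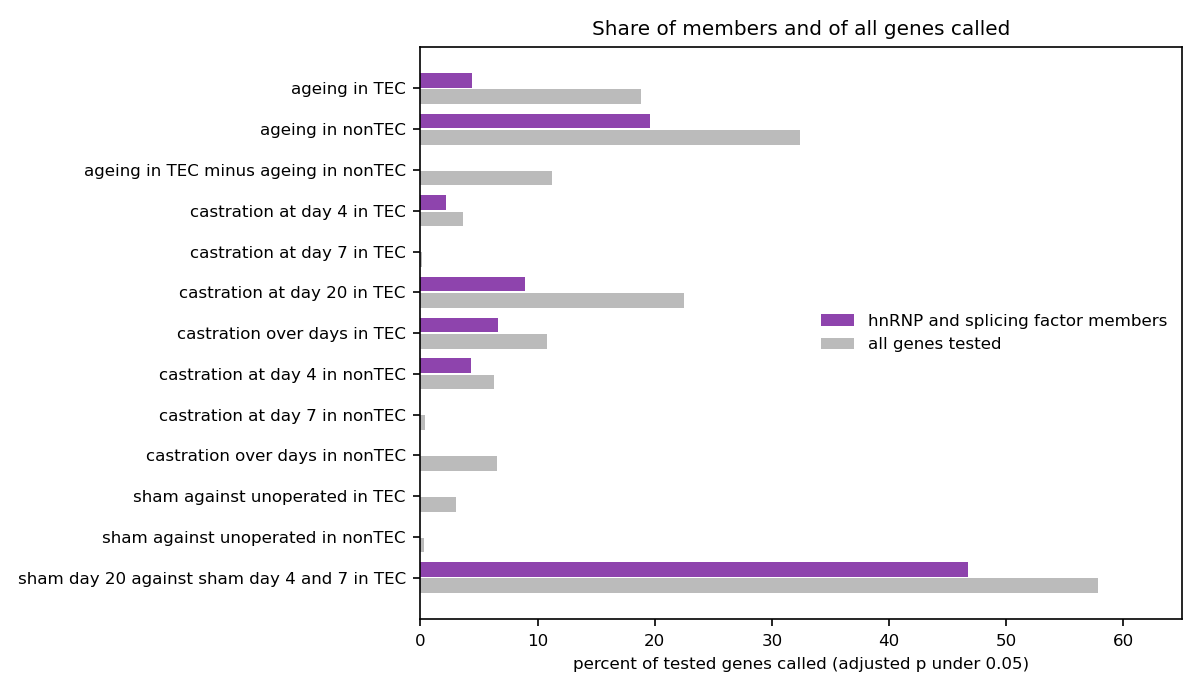
Percent of tested genes called at an adjusted p under 0.05 (horizontal axis) in each of 13 comparisons (vertical axis), for hnRNP and splicing factor members above and all genes tested below. The member share runs from 0% to 46.7%, and the share of all genes from 0.171% to 57.8%.

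Other splicing genes (further spliceosome proteins, splicing regulators and the SR protein kinases; 79 genes tested in each fraction) were counted the same way. With age, 6 were higher and 2 lower in TEC, where 11.9% of all genes were called as higher and 6.88% as lower. In nonTEC 6 were higher and 9 lower, where 16.8% of all genes were called as higher and 15.5% as lower. Ddx17, an RNA helicase, averaged 13.03 ± 0.25 in middle-aged and 12.54 ± 0.17 in young TEC (SD, n = 3 arrays each; difference 0.49, limma adjusted p = 0.00899). Snrnp25, a protein of the minor spliceosome, was lower by a difference of -0.80 in the same comparison (adjusted p = 0.00912), as was Lsm10 (-0.65, adjusted p = 0.0191), a protein of the U7 particle. In nonTEC, Lsm5 (-0.93), a ring protein of the U6 particle, and Pcbp1 (-0.50) were lower and Rbfox2 (0.82), a regulator of muscle and epithelial exons, was higher. The ageing difference of Rbfox2 was lower in TEC than in nonTEC by the interaction term (-0.93, limma adjusted p = 0.00497). Those of Clk3 (0.95), an SR protein kinase, and Cdc5l (0.58) were higher. By that term 8 of 82 were higher and 1 lower, where 7.78% and 3.45% of all genes were.

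After castration, 4 of the 79 were higher and 1 lower at day 4 in TEC, where 2.33% and 1.29% of all genes were. Among them were Acin1 (1.12), Esrp2 (0.98), the epithelial splicing regulator, and Cherp (0.76). Acin1 averaged 6.44 after castration and 5.32 after sham surgery, both below the limit of the filter on dim probes. Esrp2 averaged 8.58 ± 0.24 after castration and 7.6 ± 0.24 after sham surgery (SD, n = 3 arrays each; limma adjusted p = 0.023), and over all days it differed by 0.58 (adjusted p = 0.00807). Over days 2 were higher and 1 lower, where 5.87% and 4.95% of all genes were. Srpk1 (0.35), an SR protein kinase, was higher and Syf2 (-0.41) lower. At day 20, 3 were higher and 1 lower, where 13.1% and 9.40% of all genes were. Snrnp25 (1.35) and Phf5a (0.27), the SF3b subunit that does not carry an Sf3b symbol, were higher. Syncrip (-0.80), an hnRNP by another name, was lower.

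In nonTEC at day 4, U2af1 (0.51), which reads the 3′ splice site, was higher and Scaf1 (-0.64) lower, where 6.31% of all genes were called. None of the 79 was called at day 7, where 0.438% of all genes were, or over days, where 6.54% were. None was called for sham surgery in nonTEC, where 0.283% of all genes were. In TEC 5 were lower, where 2.06% of all genes were, among them Pcbp2 (-0.47), Cherp (-0.63) and Ddx17 (-0.42). At sham day 20, 23 were higher and 20 lower than at sham day 4 and 7, where 23.7% and 34.1% of all genes were. Sfpq (2.69), a nuclear paraspeckle protein, was higher, with a mean of 7.34 at sham day 20 against 4.66 at sham day 4 and 7. The level of 4.66 lies below the limit of the filter on dim probes. This comparison could therefore hardly have shown Sfpq as lower, and its direction carries little weight. Snrnp25 (-1.62) and Lsm1 (-1.28), which acts in mRNA decay, were lower.

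Over all 13 comparisons there were 42 member calls. Of these, 21 came at sham day 20, where 46.7% of members and 57.8% of all genes were called. Snrpd3 was the 1 member called for ageing in both fractions. Probes of the same gene often disagreed: in the TEC ageing comparison 15 of 32 members with several probes had differences of both signs, and in the nonTEC ageing comparison 16 of 34.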

How the data were processed

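Sorted TEC and nonTEC RNA was measured on 41 single-colour Illumina arrays. The authors deposited normalized intensities on a log2 scale; no source used here gives the base of the logarithm, and 2 was assumed. The tool limma is named in the submitters' processing notes, and array medians lie between 6.743 and 6.79 in TEC and between 6.947 and 6.982 in nonTEC. Arrays give no read depth; their number limits the precision. Of 24671 probes, 20825 list 1 gene, 11 several and 3835 none; 20799 matched RefSeq by Entrez ID. The members and all gene lists were chosen with earlier results of these data known. Group means were fitted with limma 3.58.1 (lmFit, eBayes with trend; R 4.3.3) in each fraction over all its groups, and in both together for the interaction; one probe of highest mean per gene, group mean above 6.73 in at least 1 group. The 2 sham day 4 and 7 means were averaged for the sham comparisons. The members named with array values are the 4 called members per direction with the largest ageing difference, 3 in other comparisons and the one of highest mean per family; other splicing genes are the 3 of smallest p. The fit was tested on simulated data. Alternatives were probe filters, probe means, array weights, arrays compared only, replicate block, covariates, other controls and left-out arrays.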

Additional observations from a re-analysis of the deposited data

How the results depend on the processing

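Of 42 member calls, 10 held under every alternative that gave a value for them (for Sf3b6 at sham day 20 the mean of all probes did not pass the filter on dim probes), and of 229 alternative counts of members called 133 were within 1.5 times the reported count; the causes of the shifts were not tested. Array weights gave 9 members for ageing in TEC and 4 in nonTEC, 3 for their difference, 20, 18 and 15 for castration in TEC at days 4, 7 and 20 and 18 over days, 7, 1 and 4 for castration in nonTEC at days 4 and 7 and over days, 1 for sham surgery in each fraction and 33 for sham day 20. Fitting only the arrays compared gave 0 for ageing in each fraction, where 8 of 8195 genes in TEC and 1316 of 7771 in nonTEC were called. It gave 0, 15 and 9 for castration in TEC at day 4, day 20 and over days, where 0, 4216 and 1847 genes were called. In nonTEC it gave 1 at day 4 and 1 at day 7, where 354 and 432 genes were called. The mean of all probes gave 1 for ageing in TEC, 1 for the difference between fractions, 0 for castration at day 4 in each fraction and over days in TEC, and 1 for sham surgery in nonTEC; it reversed Hnrnpa0 (ageing in TEC, -0.27) and Hnrnpa1 (ageing in nonTEC, 0.070). Without middle-aged array 3, castrated day 4 arrays 2 and 3 and sham day 4 array 3 of TEC, the counts were 5 for ageing, 3 for the difference, 0, 3 and 1 for castration at day 4, day 7 and over days, and 3 for sham surgery; without castrated day 7 array 3 as well, chosen after seeing the data, they were 7, 3, 0, 4, 1 and 5, and 10 for castration at day 20. Sham in place of unoperated arrays, with the sham days weighted equally, gave 5 for ageing in TEC, and in nonTEC 6, of which 2 were among the 9. In TEC the sham days were 4, 7 and 20, so that count includes the day 20 arrays that stood apart. In nonTEC they were 4 and 7. Unoperated arrays as the control gave 0, 2 and 21 for castration in TEC at days 4, 7 and 20 and 7 at day 7 in nonTEC, and reversed Prpf8 (0.45) and Srsf6 (0.092) at day 20. At day 20 this control also carries whatever sets the 6 day 20 arrays apart. The thymocyte covariate gave 1 for ageing in nonTEC, where 864 genes were called. The cell cycle covariate gave 0 for ageing in each fraction, where 344 genes in TEC and 589 in nonTEC were called. Added after seeing the data, it gave 0 for castration at day 20 and 5 over days in TEC, where 444 and 861 genes were called. For the other settings and for left-out arrays the share of all genes is not given. Those counts therefore cannot be read as particular to members.

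Single left-out arrays gave 1 to 4 members for ageing in TEC, 5 to 14 in nonTEC and 0 to 5 for the difference. For castration in TEC they gave 0 to 15 at day 4, 0 to 0 at day 7, 0 to 3 at day 20 and 0 to 9 over days, and in nonTEC 0 to 2 at day 4 and 0 to 0 at day 7 and over days. For sham surgery they gave 0 to 3 in each fraction, and for sham day 20 they gave 15 to 21. Same-numbered arrays did not deviate together (correlations -0.146 to 0.261), so the numbers were not taken as a pairing. With the replicate number as a block, 4 members were called for castration at day 4 in TEC, 1 at day 4 in nonTEC and 1 for the difference in ageing; the other counts were 2 and 8 for ageing in TEC and nonTEC, 0, 4 and 3 for castration in TEC at day 7, day 20 and over days, 0 in nonTEC at day 7 and over days, 0 for sham surgery in each fraction and 21 for sham day 20.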
